A study of Homo sapiens with 118 samples.

Results

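The genes described here make cholesterol and set how much of it a cell makes. They are 29 genes given by name, taken as the rows of the count table whose name, without the trailing probe number, equals the gene symbol. These were 33 of 22068 features, where a feature is 1 detector probe, and 29 of 19470 gene symbols. FDPS and DHCR7 have several features, and CYP51A1 has 3. A gene with several features is described by the one with the highest mean level over all libraries. The list holds 9 genes of the mevalonate arm, 11 of the squalene and sterol arm, 5 of the control by sterol regulatory element-binding proteins and 4 of sterol transport, uptake and esterification.

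Cholesterol is built from acetyl-CoA. The mevalonate arm makes isoprenoid units and joins them to farnesyl diphosphate, which is passed on to squalene and to other products such as geranylgeranyl diphosphate. The sterol arm joins farnesyl units to squalene, closes the rings to lanosterol and trims and reduces lanosterol to cholesterol. The escort protein SCAP carries the transcription factors SREBP-1 and SREBP-2 out of the endoplasmic reticulum when sterols are low, INSIG proteins hold the complex back when sterols are high, and released SREBP-2 switches on most genes of the pathway, INSIG1 among them. The liver is a main site of this synthesis.

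The series comprised 118 TempO-Seq libraries of HepaRG cells, an established line derived from 1 human liver tumour that gives hepatocyte-like and biliary-like cells when differentiated. Differentiated cells were kept for 7 days and then exposed for 72 h, with daily renewal, to 1 of 8 histone deacetylase inhibitors at 5 concentrations, C1 (lowest) to C5 (highest). Replicates 1, 2 and 3 of a group came from 3 batches of HepaRG cells, and panobinostat C3 and trichostatin A C4 lacked batch 3. The stated purpose was a transcript set that classifies such inhibitors. All groups share the cell line, the induction medium and the exposure time. The sample titles also carry a letter, E for scriptaid, tacedinaline and vorinostat and H for the other chemicals. This letter goes with the chemical, so its part in a difference among chemicals cannot be told apart. C1 and C5 were 0.041722 and 0.86 µM for apicidin, a cyclic tetrapeptide, 0.177222 and 3.9 µM for mocetinostat and 1.143333 and 44 µM for tacedinaline, which are benzamides. They were 0.001468 and 0.084 µM for panobinostat, 4.94 and 94.5 µM for scriptaid, 0.018811 and 1.5237 µM for trichostatin A and 0.404778 and 23.5 µM for vorinostat, which are hydroxamic acids. For valproic acid, a branched fatty acid, the dose labels read 100.478 and 3038, and their unit is open because the treatment text gives smaller numbers. Solvent controls were not used here, so C1 of the same chemical was the reference, and a response already present at C1 would not be seen.

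Total counts lay between 1061359 and 5250260 per library, with a median of 3702007. Levels are given as CPM, the read count relative to the TMM-scaled library size, and they are compared between libraries of 1 feature, never between genes. Over all features, 6 libraries stood apart from their group, in that both chi-square distances per degree of freedom to the other replicates were over 3 times the distance between those. They were apicidin C4 replicate 1 (41.5 and 50.7 against 6.02), mocetinostat C2 replicate 3 (64.6 and 101 against 14.3), mocetinostat C3 replicate 1 (42.5 and 53.3 against 6.70), panobinostat C2 replicate 2 (39.3 and 39.8 against 10.6), scriptaid C4 replicate 3 (67.9 and 69.2 against 11.1) and trichostatin A C1 replicate 3 (49.3 and 57.6 against 5.90). The median over all pairs within groups was 7.88. Counts of calls without each of them are given with the counts by concentration, as alternatives chosen after seeing the data. Trichostatin A C1 replicate 3 is the single one of the 6 in a C1 group, and thus enters every comparison of its chemical. It had the lowest level of the 3 C1 libraries of that chemical in 23 of 27 tested genes of the list, and its summed level of hepatocyte markers was 12517 CPM against up to 55781 CPM in the other C1 libraries of trichostatin A. How many of all features were lowest in this library was not counted. Values without it are given with the results of trichostatin A.

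The stretches before the transcription start of 5 genes are printed here, because 4 of them (MSMO1, HMGCS1, FDPS and INSIG1) fell together in most chemicals while INSIG2 rose. They are the 250 bases upstream of the start, read 5′ to 3′ along the gene's strand from RefSeq promoter windows of GRCh38.p14. Capitals mark CCAAT on either strand (ATTGG on the strand shown), the box bound by NF-Y, a factor that works beside SREBP at many promoters of sterol genes. The windows are chr4:165327419-165327668 on the plus strand for MSMO1, chr5:43313413-43313662 on the minus strand for HMGCS1, chr1:155308616-155308865 on the plus strand for FDPS, chr7:155297628-155297877 on the plus strand for INSIG1 and chr2:118088221-118088470 on the plus strand for INSIG2.
MSMO1: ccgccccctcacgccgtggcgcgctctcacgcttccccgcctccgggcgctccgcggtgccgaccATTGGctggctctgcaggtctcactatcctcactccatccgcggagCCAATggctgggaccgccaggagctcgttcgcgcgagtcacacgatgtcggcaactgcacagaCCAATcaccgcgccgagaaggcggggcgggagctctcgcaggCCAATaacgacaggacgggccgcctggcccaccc
HMGCS1: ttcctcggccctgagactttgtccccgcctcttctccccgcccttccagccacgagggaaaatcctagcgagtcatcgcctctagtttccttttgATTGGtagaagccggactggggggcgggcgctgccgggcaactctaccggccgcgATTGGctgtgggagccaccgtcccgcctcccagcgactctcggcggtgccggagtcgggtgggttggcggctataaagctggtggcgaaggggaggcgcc
FDPS: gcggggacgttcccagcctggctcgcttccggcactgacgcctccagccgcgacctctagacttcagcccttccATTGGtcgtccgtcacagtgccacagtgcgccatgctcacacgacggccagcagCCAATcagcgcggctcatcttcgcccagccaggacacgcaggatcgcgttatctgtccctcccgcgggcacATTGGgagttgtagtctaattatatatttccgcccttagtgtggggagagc
INSIG1: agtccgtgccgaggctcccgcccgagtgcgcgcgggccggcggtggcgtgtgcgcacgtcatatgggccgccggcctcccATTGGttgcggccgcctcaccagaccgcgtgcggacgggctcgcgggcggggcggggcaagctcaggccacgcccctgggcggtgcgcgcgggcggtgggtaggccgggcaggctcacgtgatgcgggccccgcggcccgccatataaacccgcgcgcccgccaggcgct
INSIG2: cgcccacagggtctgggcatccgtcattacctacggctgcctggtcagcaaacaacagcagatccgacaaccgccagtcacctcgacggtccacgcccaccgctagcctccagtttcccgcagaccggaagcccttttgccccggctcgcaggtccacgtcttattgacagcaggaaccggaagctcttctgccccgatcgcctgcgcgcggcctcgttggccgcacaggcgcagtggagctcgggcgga
MSMO1 holds 4 such boxes in the window printed, FDPS 3, HMGCS1 2 and INSIG1 1, and none was found in that of INSIG2. A further window of HMGCS1 (chr5:43313182-43313431), not printed, held none. The same was true of a further window of INSIG2 (chr2:118088300-118088549). Of the 29 genes, 25 had a RefSeq window (250 bases before to 50 after the start, CCAAT counted on both strands), and 19 of these 25 (76.0%) held CCAAT in at least 1 window. Among all 27305 genes with a window the share was 39.7%. The sterol regulatory element TCACNCCAC, where N is any base, was found on either strand in 1 of the 25 genes, SREBF2, and in 1.39% of all genes. The boxes did not separate genes by direction: GGPS1 (1 box), MYLIP (2) and STARD4 (2) rose in at least 1 chemical and fell in none, CYP51A1 holds none and fell in 6 chemicals, and MVK holds 5 and was not called at C5. These matches are descriptions of letters, not of bound sites.

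At C5, 8 genes fell in at least 6 of the 8 chemicals: the enzymes ACAT2, HMGCS1, FDPS, MSMO1, CYP51A1, HSD17B7 and SC5D, and INSIG1. INSIG2 rose in 6 chemicals and MYLIP in 3. How many of all features fell or rose in as many chemicals was not counted. Of 238 results (feature by chemical) at C5 against C1, 81 fell and 15 rose, where a call needed an adjusted p under 0.05 in edgeR's quasi-likelihood test and a fold of at least 1.5. Among the results of all features, 13.4% fell and 11.6% rose. Each of the 81 falls and 15 rises had the same direction in all 3 batches, but the calls were made from these same libraries, so this is no separate support. Of the 96 calls, 40 were lost in at least 1 fit that left out a batch. By gene, 27 of 29 passed the filter on low counts in at least 1 chemical, 15 of these fell and never rose, 5 rose and never fell (INSIG2, MYLIP, GGPS1, PMVK and STARD4), and IDI1 and TM7SF2 fell in some chemicals and rose in scriptaid. MVK, LSS, SREBF1, SREBF2 and SCAP were not called at C5. NPC1L1, a sterol uptake protein of the gut and bile canaliculus, and SOAT2, which esterifies cholesterol, did not pass the filter in any chemical, with at most 9 and 11 counts in a library. SREBF1 passed it in 3 chemicals and MVK in 7.

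**Figure D1:**
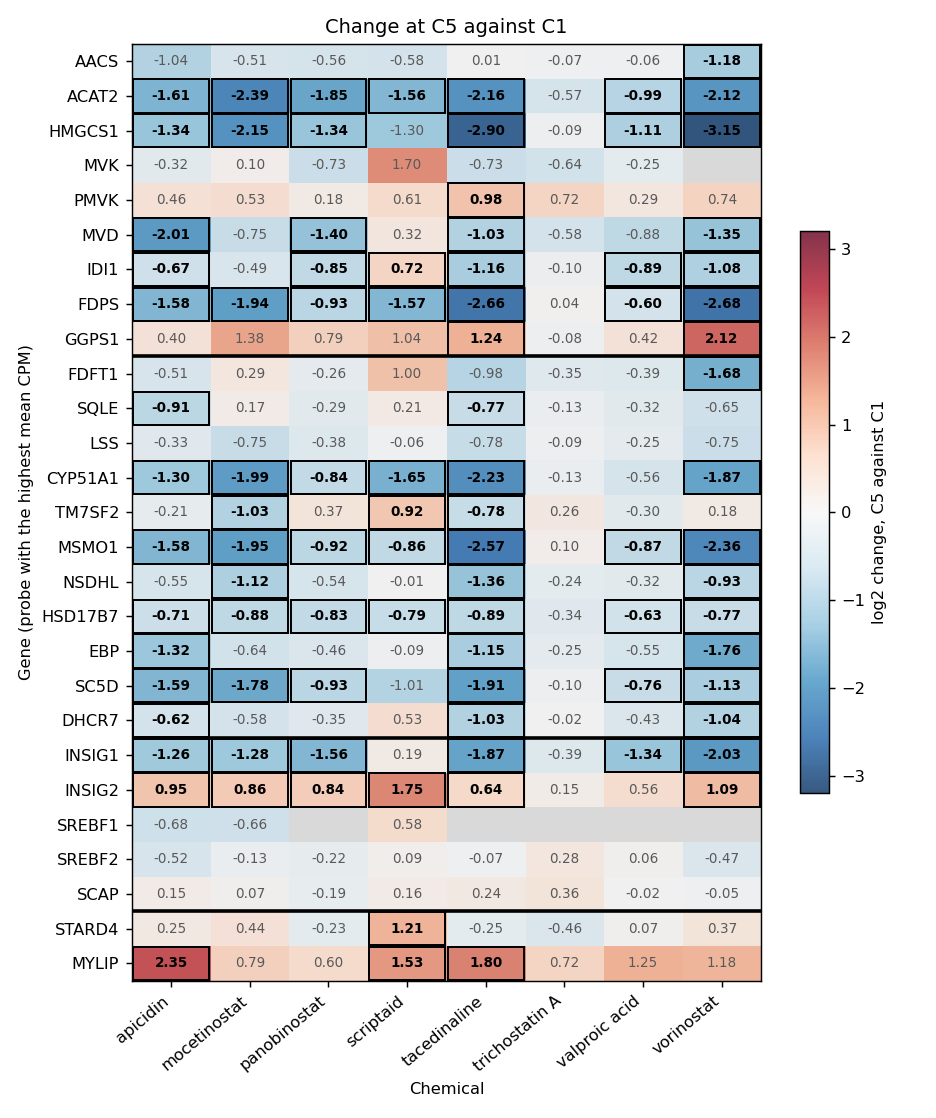
Fitted log2 change at C5 against C1 for the 27 tested genes (rows, grouped by role with black lines between groups) in each of the 8 chemicals (columns). Bold, boxed numbers passed the call rule, grey cells were not tested, and the colour scale runs from blue (lower at C5) to red (higher at C5). The upper groups are mostly blue, with HMGCS1 at -3.15 in vorinostat, while INSIG2 and MYLIP are red in every column, and the trichostatin A column is pale throughout.

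The number of features called differed between the chemicals. In vorinostat 18 of 28 tested were called at C5 (2 rose, 16 fell), beside 47.5% of all features, of which 24.9% fell. In tacedinaline 20 of 29 were called (4 rose, 16 fell), beside 38.8% of all features and 20.1% falling. In apicidin 16 of 30 were called (2 rose, 14 fell), beside 28.8% and 15% falling. Falls thus made up a larger share of the list than of all features in these chemicals. In mocetinostat 12 of 30 were called (1 rose, 11 fell), beside 30.5% and 15.7% falling. In panobinostat the count was also 12 of 30 (1 rose, 11 fell), beside 16.2% and 9.46% falling. In valproic acid 8 of 30 fell and none rose, beside 11.1% called and 6.22% falling. In scriptaid the directions were even, with 5 of 31 rising and 5 falling, beside 29.8% called and 17% falling. In trichostatin A none of 30 was called in edgeR's test and DESeq2 called none, while edgeR's test called 0.0154% of all features, all of them falling. An unadjusted p under 0.05 in edgeR's test was found for 2 of the 30, beside 1255 of all 12993 features tested.

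The median log2 change of the list at C5 was -0.99 in vorinostat, -0.89 in tacedinaline, -0.68 in apicidin, -0.65 in mocetinostat, -0.55 in panobinostat and -0.40 in valproic acid. It was 0.16 in scriptaid and -0.09 in trichostatin A. The median of all features tested lay between 0.00 and 0.08 in the 8 chemicals. Some counts changed when a batch was left out. Such a fit also has fewer libraries per group, and the part of each in the change was not tested. Without batch 1 and without batch 2, 3 and 2 features were called in scriptaid in place of 10, and 1 and 4 in valproic acid in place of 8, while 6 were called in mocetinostat without batch 2 and 6 in panobinostat without batch 3. In trichostatin A 2 features were called without batch 3. The share of all features called was not computed for the fits that left out a batch.

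In the mevalonate arm 30 of 75 results fell at C5 (40.0%) and 4 rose (5.33%). Over all features and the 8 chemicals together, 13.4% of results fell and 11.6% rose at C5. ACAT2, the cytosolic thiolase that makes acetoacetyl-CoA, fell in 7 chemicals, and its largest change was in mocetinostat. There it read 50.1, 48.9 and 73.8 CPM at C1 in batches 1 to 3, and 10.6, 7.44 and 13.0 CPM at C5. All C5 libraries lay below all C1 libraries, a log2 change of -2.39 (SE 0.414, adjusted p = 0.000359), or 5.25-fold lower. In trichostatin A ACAT2 read 54.7, 45.3 and 39.1 CPM at C1 and 33.6, 22.3 and 36.8 CPM at C5, and these groups did not overlap either, though the change of -0.57 did not pass (adjusted p = 0.481). The ACAT2 calls in scriptaid and valproic acid were lost without batch 1 and without batch 2.

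HMGCS1, the synthase that commits acetoacetyl-CoA to the pathway, showed the largest fall of the list. In vorinostat it read 675, 719 and 718 CPM at C1 and 71.1, 67.3 and 83.2 CPM at C5. The C5 libraries lay far below the C1 libraries and close together, with a log2 change of -3.15 (SE 0.211, adjusted p = 2.69e-14), or 8.85-fold lower. The mean over concentrations of vorinostat ran from 704 CPM ± 24.9 (SD, n = 3) at C1 to 691 ± 54.9 at C2, 448 ± 229 at C3, 112 ± 6.77 at C4 and 73.9 ± 8.28 at C5. HMGCS1 thus held its level at C2 and had most of its fall by C4. In tacedinaline the change was -2.90 (adjusted p = 2.91e-18). In scriptaid HMGCS1 read 516, 551 and 768 CPM at C1 and 239, 248 and 222 CPM at C5, without overlap, and the change of -1.30 missed the threshold (adjusted p = 0.0584), which it passed without scriptaid C4 replicate 3 (-1.32, adjusted p = 8.09e-05). The HMGCS1 call in valproic acid was lost without batch 1. In trichostatin A it read 556, 508 and 152 CPM at C1 and 401, 280 and 449 CPM at C5, so the groups overlapped through the C1 library of batch 3 (log2 change -0.09, adjusted p = 0.964).

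FDPS, which makes farnesyl diphosphate, fell in 7 chemicals. In vorinostat it read 137, 120 and 109 CPM at C1 and 10.6, 22.1 and 18.3 CPM at C5. The groups lay well apart, with a log2 change of -2.68 (SE 0.233, adjusted p = 1.67e-11), or 6.41-fold lower. In trichostatin A FDPS read 105, 102 and 47.8 CPM at C1 and 91.3, 77.0 and 92.2 CPM at C5, with overlap (log2 change 0.04, adjusted p = 0.976). A further FDPS feature of low level passed the filter in 4 chemicals and was called in none. The FDPS call in valproic acid was lost without batch 1, without batch 2 and with all libraries in 1 fit (adjusted p = 0.0870), and that in panobinostat without batch 3.

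The remaining mevalonate enzymes moved less uniformly. MVD, the decarboxylase that makes isopentenyl diphosphate, fell in 4 chemicals, most in apicidin, from 43.0, 39.3 and 35.9 CPM at C1 to 8.11, 9.78 and 11.2 CPM at C5. That was a log2 change of -2.01 (adjusted p = 3.02e-05). The MVD call in panobinostat was lost without batch 3 and that in tacedinaline without batch 1. AACS, which activates acetoacetate for lipid synthesis, was called at C5 in vorinostat (log2 change -1.18, adjusted p = 0.028), a call lost without batch 1 or batch 3. In apicidin AACS was at -1.04 (adjusted p = 0.0887), and its change did not differ detectably among the chemicals (adjusted p = 0.394). MVK, the kinase that phosphorylates mevalonate, ranged from -0.73 to 1.70 over 7 chemicals without a call. PMVK, the following kinase, was higher at C5 in all 8 chemicals (0.18 to 0.98) but was called in tacedinaline alone, where it read 14.3, 15.7 and 16.8 CPM at C1 and 27.2, 27.1 and 34.6 CPM at C5 (log2 change 0.98, adjusted p = 0.0177). That PMVK call was lost when any 1 batch was left out.

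IDI1, the isomerase that supplies the starter unit of prenyl chains, went in opposite directions. In tacedinaline IDI1 read 673, 569 and 658 CPM at C1 and 249, 261 and 295 CPM at C5 (log2 change -1.16, adjusted p = 2.51e-09). In scriptaid it read 613, 519 and 576 CPM at C1 and 1056, 986 and 645 CPM at C5 (log2 change 0.72, adjusted p = 0.0479). All C5 libraries of scriptaid lay above all C1 libraries, the one of batch 3 by the least, and the call was lost without batch 1 or batch 2 and without the filter on low counts (adjusted p = 0.107). GGPS1, which draws farnesyl diphosphate into geranylgeranyl diphosphate, rose in vorinostat from 21.8, 27.0 and 26.4 CPM at C1 to 93.9, 114 and 96.7 CPM at C5. This 4.34-fold rise (log2 change 2.12, adjusted p = 1.09e-08) ran against the fall of FDPS in the same libraries. GGPS1 also rose in tacedinaline (log2 change 1.24, adjusted p = 0.000494), a call lost without batch 2 and with all libraries in 1 fit (adjusted p = 0.0823).

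**Figure D2:**
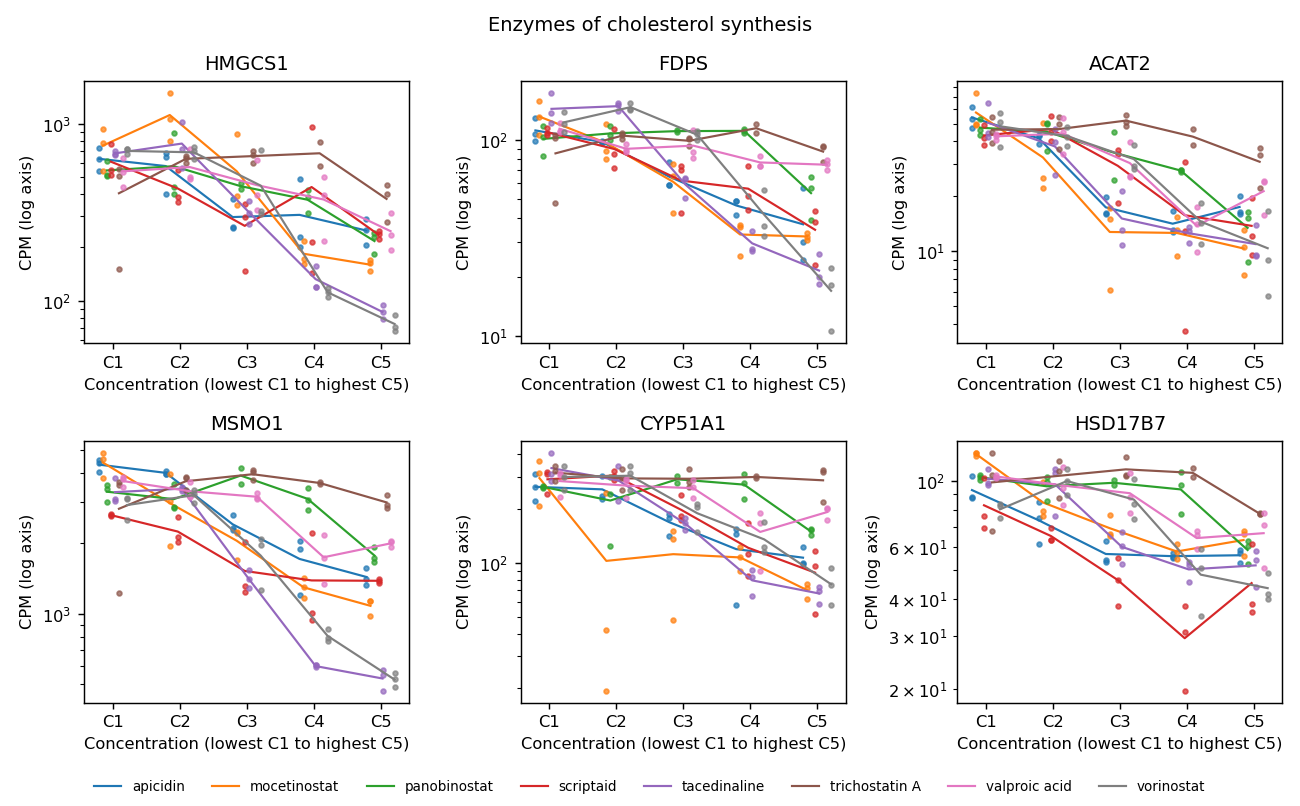
Levels of 6 enzymes (CPM, log axis) against concentration C1 to C5 for the 8 chemicals. Points are single libraries and lines join group means, with 3 libraries per group except 2 for panobinostat C3 and trichostatin A C4. HMGCS1 in vorinostat drops from 704 CPM at C1 to 73.9 CPM at C5, MSMO1 in tacedinaline drops from 3304 to 530 CPM, and the trichostatin A lines have 1 low point at C1 for HMGCS1, FDPS and MSMO1.

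In the squalene and sterol arm 45 of 112 results fell at C5 (40.2%) and 1 rose (0.893%), beside the 13.4% and 11.6% of all features. MSMO1, the methylsterol monooxygenase, fell in 7 chemicals. In tacedinaline MSMO1 read 3814, 3074 and 3024 CPM at C1 and 574, 546 and 471 CPM at C5. All C5 libraries lay far below C1, with a log2 change of -2.57 (SE 0.116, adjusted p = 5.83e-22), or 5.92-fold lower. The level had already dropped to 1537, 1402 and 1295 CPM at C3 and to 591, 603 and 603 CPM at C4. In trichostatin A it read 3657, 3530 and 1232 CPM at C1 and 2836, 2916 and 3211 CPM at C5, where the low value is the C1 library of batch 3 (log2 change 0.10, adjusted p = 0.944). The scriptaid call of MSMO1 (log2 change -0.86, adjusted p = 0.0423) was lost without batch 1 or batch 2 and with DESeq2-style size factors (adjusted p = 0.0540).

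CYP51A1, the lanosterol demethylase, fell in 6 chemicals. In tacedinaline it read 410, 312 and 286 CPM at C1 and 58.9, 69.5 and 73.3 CPM at C5, without overlap (log2 change -2.23, SE 0.176, adjusted p = 4.79e-14). In valproic acid CYP51A1 read 314, 309 and 231 CPM at C1 and 201, 199 and 173 CPM at C5, and the groups did not overlap but the change of -0.56 missed the threshold (adjusted p = 0.0801). In trichostatin A it read 323, 344 and 283 CPM at C1 and 217, 318 and 327 CPM at C5, with overlap (log2 change -0.13, adjusted p = 0.873). The CYP51A1 call in panobinostat was lost without batch 1, without batch 3 and with all libraries in 1 fit (adjusted p = 0.0998), and that in mocetinostat without batch 2 (adjusted p = 0.164). The other CYP51A1 features, of lower level, fell in 4 chemicals and in 1, and neither rose in any.

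HSD17B7, a keto-sterol reductase, fell in 7 chemicals by similar amounts, from -0.63 to -0.89 on the log2 scale. In tacedinaline it read 96.9, 109 and 98.6 CPM at C1 and 54.0, 57.9 and 44.0 CPM at C5 (log2 change -0.89, SE 0.197, adjusted p = 0.000257). In trichostatin A HSD17B7 read 124, 104 and 67.8 CPM at C1 and 77.4, 77.3 and 77.8 CPM at C5, which fell between the C1 values (log2 change -0.34, adjusted p = 0.628). HSD17B7 has a near-identical pseudogene copy, so its counts are uncertain. Its calls in scriptaid and valproic acid were lost without batch 1 or batch 2 (in scriptaid also without the filter on low counts), in mocetinostat without batch 2, and in apicidin and panobinostat without batch 3.

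SC5D, the lathosterol desaturase, fell in 6 chemicals, most in tacedinaline, from 86.8, 71.4 and 109 CPM at C1 to 25.7, 27.1 and 14.7 CPM at C5 (log2 change -1.91, adjusted p = 2.27e-08). The SC5D call in valproic acid was lost without batch 1, without batch 2 and with all libraries in 1 fit (adjusted p = 0.121). NSDHL, a sterol dehydrogenase, fell in 3, and in tacedinaline it went from 645, 568 and 551 CPM to 227, 222 and 205 CPM (log2 change -1.36, adjusted p = 1.19e-10). EBP, the sterol isomerase, fell in 3 (in apicidin not without batch 2), most in vorinostat, from 93.9, 80.9 and 110 CPM to 12.3, 27.3 and 36.0 CPM (log2 change -1.76, adjusted p = 5.84e-06). In each of these 3 cases the C5 libraries all lay below the C1 libraries. DHCR7, the reductase that ends the pathway, fell in apicidin, tacedinaline and vorinostat, and the apicidin call was lost without batch 1. In vorinostat DHCR7 read 1337, 1278 and 1153 CPM at C1 and 551, 622 and 520 CPM at C5 (log2 change -1.04, adjusted p = 9.9e-09). In scriptaid it read 1239, 1161 and 1278 CPM at C1 and 1588, 1674 and 1792 CPM at C5, so that all C5 libraries were higher, with a change of 0.53 (adjusted p = 0.0755). The other DHCR7 feature, of lower level, ranged from -0.49 to 1.07 over 8 chemicals and was called in none.

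FDFT1, the squalene synthase, was called at C5 in vorinostat (log2 change -1.68, adjusted p = 0.0112), where it read 16.8, 11.3 and 12.4 CPM at C1 and 3.27, 6.59 and 1.18 CPM at C5. That call was lost without batch 1 or batch 3. SQLE, the squalene epoxidase, fell in apicidin (log2 change -0.91, adjusted p = 0.0178) and tacedinaline (log2 change -0.77, adjusted p = 0.0459), and each SQLE call was lost without batch 1 and without batch 2. LSS, which closes the rings to lanosterol, was lower at C5 in all 8 chemicals (-0.78 to -0.06) and was called in none. By trend over all concentrations LSS fell in mocetinostat (-1.13, adjusted p = 0.0343) and tacedinaline (-0.87, adjusted p = 0.0304). TM7SF2, a sterol reductase, fell in mocetinostat from 29.5, 25.4 and 40.1 CPM to 10.8, 17.7 and 15.2 CPM (log2 change -1.03, adjusted p = 0.0271) and rose in scriptaid from 21.1, 17.8 and 23.6 CPM to 39.1, 39.5 and 33.4 CPM (log2 change 0.92, adjusted p = 0.024). The groups did not overlap in either chemical. It also fell in tacedinaline (log2 change -0.78, adjusted p = 0.0264). The mocetinostat call of TM7SF2 was lost when any 1 batch was left out, the tacedinaline call without batch 1 or batch 2, and the scriptaid call without batch 1 or batch 2 and without the filter on low counts (adjusted p = 0.127).

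Among the control genes 6 of 35 results rose and 6 fell (17.1% each), beside 11.6% and 13.4% of all features, and all of these were of the INSIG pair. INSIG1 fell in 6 of 8 chemicals and rose in none, while INSIG2 rose in 6 and fell in none. The fall of INSIG1 in mocetinostat began from a high level at C1, as given below. In vorinostat INSIG1 read 372, 308 and 370 CPM at C1 and 80.9, 72.5 and 84.9 CPM at C5, without overlap (log2 change -2.03, SE 0.193, adjusted p = 1.31e-10), or 4.09-fold lower. In the same libraries INSIG2 read 373, 390 and 326.05 CPM at C1 and 684, 765 and 703 CPM at C5, also without overlap (log2 change 1.09, adjusted p = 3.69e-08). In tacedinaline INSIG1 went from 568, 600 and 643 CPM to 153, 110 and 209 CPM, and INSIG2 from 423, 420 and 413 CPM to 628, 656 and 572 CPM. In scriptaid INSIG1 read 403, 316 and 373 CPM at C1 and 448, 415 and 327 CPM at C5, with overlap (log2 change 0.19, adjusted p = 0.663). INSIG1 was not called in scriptaid and trichostatin A, and its call in valproic acid was lost without batch 1.

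INSIG2 had its largest change in scriptaid, with 330, 379 and 370 CPM at C1 and 736, 839 and 1857 CPM at C5 (log2 change 1.75, SE 0.437, adjusted p = 0.00539). All C5 libraries were above all C1 libraries, and the library of batch 3 was the highest by far, as it also was at C4 (270, 407 and 1215 CPM). Without batch 2 that call was lost (adjusted p = 0.0617). In valproic acid INSIG2 read 447, 453 and 466 CPM at C1 and 698, 652 and 648 CPM at C5, which did not overlap, and the change of 0.56 narrowly missed the threshold (adjusted p = 0.0545). In trichostatin A it read 386, 439 and 547 CPM at C1 and 540, 551 and 414 CPM at C5 (log2 change 0.15, adjusted p = 0.857). The INSIG2 calls in mocetinostat were lost when any 1 batch was left out, in panobinostat without batch 1 or batch 3, and in tacedinaline when all libraries were fitted together (adjusted p = 0.0803).

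INSIG1 was high at the low concentrations of mocetinostat. It read 822, 884 and 1665 CPM at C1 and 2336, 1867 and 996 CPM at C2, where the low value is the library of batch 3 that stood apart, and the mean then fell to 463 CPM ± 129 (SD, n = 3) at C3, 278 ± 35.5 at C4 and 436 ± 112 at C5. In the C1 libraries of the other 7 chemicals INSIG1 lay between 103 and 643 CPM, below every C1 library of mocetinostat, and the lowest of these was trichostatin A C1 replicate 3. The mean of 436 CPM at C5 of mocetinostat lay within this range. The doses of the chemicals differ, and no test was made between their C1 groups. The fall of INSIG1 in mocetinostat at C5 against C1 (log2 change -1.28, adjusted p = 0.00829) was lost without batch 2.

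SREBF2, which encodes SREBP-2, was not called at C5 in any chemical and ranged from -0.52 to 0.28. In vorinostat SREBF2 read 52.5, 45.6 and 59.7 CPM at C1 and 54.7, 31.1 and 22.4 CPM at C5, with overlap (adjusted p = 0.164). SCAP, the escort protein, ranged from -0.19 to 0.36 without a call. In tacedinaline SCAP read 106, 97.4 and 125 CPM at C1 and 140, 109 and 121 CPM at C5, again with overlap. SREBF1, which encodes SREBP-1, had low counts and was tested in 3 chemicals without a call. In apicidin SREBF1 read 1.89, 3.08 and 3.54 CPM at C1 and 0, 3.67 and 1.49 CPM at C5. A missed threshold does not show that these transcripts were unchanged.

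**Figure D3:**
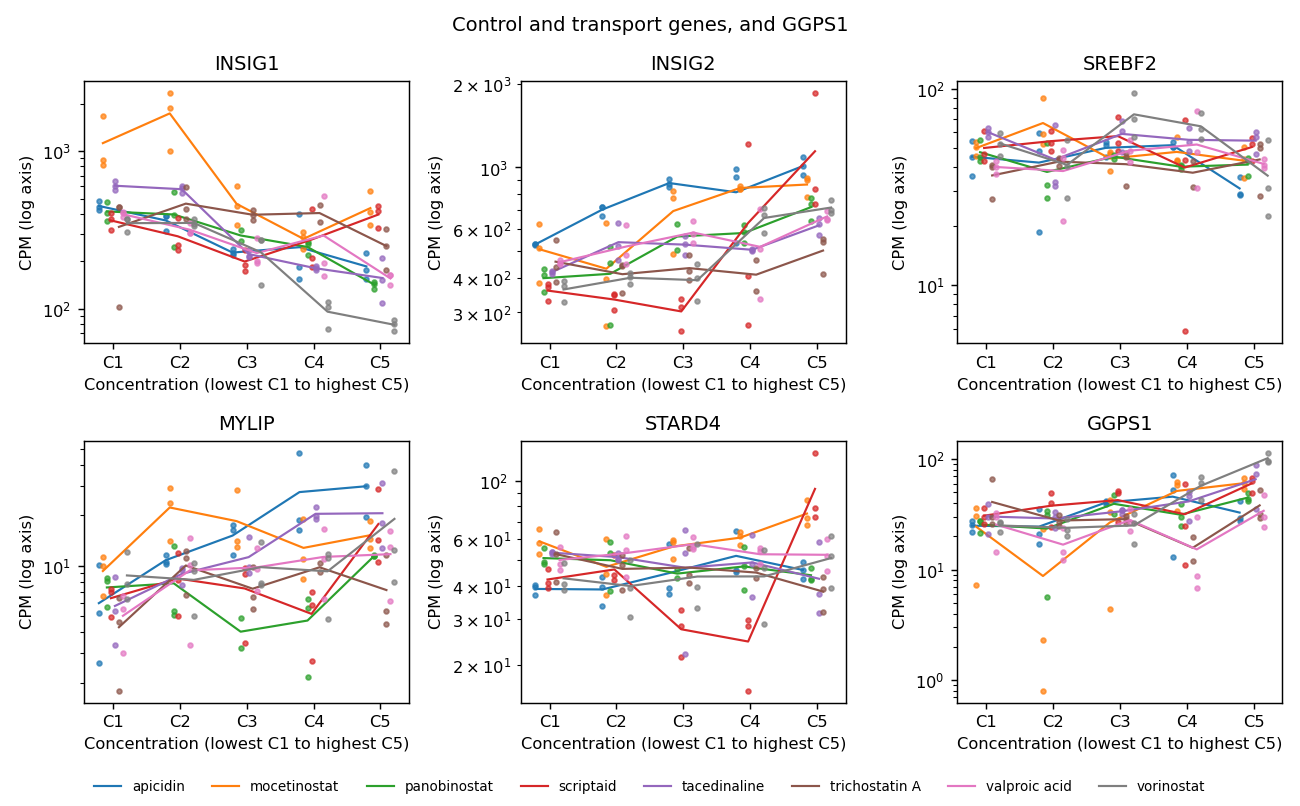
Levels of INSIG1, INSIG2, SREBF2, MYLIP, STARD4 and GGPS1 (CPM, log axis) against concentration C1 to C5 for the 8 chemicals. Points are single libraries and lines join group means, with 3 libraries per group except 2 for panobinostat C3 and trichostatin A C4. INSIG1 falls from high values at C1 and C2 in mocetinostat, INSIG2 climbs to 1144 CPM at C5 in scriptaid, and SREBF2 was called at C5 in none.

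Of 16 results for sterol transport genes at C5, 4 rose (25.0%, beside 11.6% of all features) and none fell. These are 4 results of the 2 genes MYLIP and STARD4. MYLIP is the ubiquitin ligase that marks lipoprotein receptors for breakdown and is a target of the oxysterol receptors. Its fitted change at C5 was above 0 in all 8 chemicals (0.60 to 2.35), with calls in apicidin, scriptaid and tacedinaline. In apicidin it read 5.24, 2.61 and 10.1 CPM at C1 and 30.1, 39.9 and 19.7 CPM at C5, without overlap (log2 change 2.35, SE 0.455, adjusted p = 0.000489), or 5.09-fold higher. In trichostatin A MYLIP read 6.45, 4.62 and 1.79 CPM at C1 and 5.34, 4.47 and 11.6 CPM at C5, with overlap (log2 change 0.72, adjusted p = 0.696). There it was lower at C5 in batch 1 and batch 2, and without batch 3 the change was -0.17. The scriptaid call of MYLIP was lost without batch 1 or batch 2 and without the filter on low counts (adjusted p = 0.0540), and the tacedinaline call without batch 1.

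STARD4, a soluble carrier that brings cholesterol to the endoplasmic reticulum, rose in scriptaid from 46.5, 39.4 and 41.0 CPM at C1 to 78.6, 73.0 and 128 CPM at C5 (log2 change 1.21, SE 0.294, adjusted p = 0.00436). These groups did not overlap, and the call was lost without batch 1 or batch 2. In tacedinaline STARD4 read 53.9, 52.7 and 53.7 CPM at C1 and 31.7, 37.3 and 58.7 CPM at C5, with overlap (log2 change -0.25, adjusted p = 0.488). In trichostatin A it read 63.9, 53.0 and 41.5 CPM at C1 and 31.8, 43.4 and 39.0 CPM at C5.

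The concentration at which the changes appeared differed between the chemicals. The comparisons of C2 to C5 share the C1 libraries of a chemical. At C2 no feature of the list was called in edgeR's test in any chemical with all libraries, with between 0 and 9 features per chemical at an unadjusted p under 0.05. The 9 were among 30 tested in mocetinostat, where 2475 of all 13065 features had such a p. No feature of the list had one in panobinostat and vorinostat, beside 464 of 13104 and 330 of 11631 features. Of all features, 0.102% were called at C2 in apicidin, 0.191% in mocetinostat, 0.385% in tacedinaline, 0.0172% in vorinostat and 0% in panobinostat, scriptaid, trichostatin A and valproic acid.

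The count at C2 of mocetinostat turned on 1 library. Without mocetinostat C2 replicate 3, 13 of 31 features were called at C2, 7 rising and 6 falling, beside 29.7% of all features. Those rising were INSIG1 (log2 change 1.01, adjusted p = 0.0109), HMGCS1 (0.87, adjusted p = 0.0362), IDI1, LSS, MYLIP, NSDHL and SCAP. Those falling were ACAT2, a feature of CYP51A1, EBP, GGPS1 (-3.88, adjusted p = 0.00282), MSMO1 (-0.74, adjusted p = 0.00831) and SQLE. The C2 group then held 2 libraries, which are assumed to vary like the other groups. Without panobinostat C2 replicate 2 the count at C2 stayed at 0.

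At C3 tacedinaline had 13 of 29 features falling, beside 11.9% of all features called. Most enzymes of both arms were among them (ACAT2, HMGCS1, MVD, IDI1, FDPS, CYP51A1, MSMO1, NSDHL, HSD17B7, EBP, SC5D and DHCR7), together with INSIG1. Apicidin had 2 rising (INSIG2 and MYLIP) and 8 falling at C3, beside 15.3%, and mocetinostat had 8 falling, beside 11.6%. Vorinostat had 3 falling (HMGCS1, CYP51A1 and MSMO1), beside 7.06%. No feature of the list was called at C3 in panobinostat, scriptaid, trichostatin A or valproic acid, where 0.00763%, 1.34%, 0% and 1.13% of all features were called.

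At C4 the calls were 1 rising and 14 falling in tacedinaline (32.8% of all features called), 2 rising and 14 falling in vorinostat (32.3%), 2 rising and 10 falling in apicidin (22.3%) and 1 rising and 11 falling in mocetinostat (23.7%). Valproic acid had 6 falling at C4 (11.9%) and scriptaid 3 (4.87%). Panobinostat had none (2.56%) and trichostatin A none (0%). In panobinostat all 12 calls therefore came at C5 alone. Without apicidin C4 replicate 1 the calls in apicidin at C4 were 3 rising and 11 falling (23.5% of all features called). Without mocetinostat C3 replicate 1 those in mocetinostat at C3 were 9 falling (8.78%). Without scriptaid C4 replicate 3 those in scriptaid were 7 falling at C4 (9.45% of all features called), 7 rising and 8 falling at C5 (41.2%), and 3 rising and 7 falling by trend (22.6%). HMGCS1, at -0.42 at C4 with that library (adjusted p = 0.706), was at -1.79 without it (adjusted p = 0.000126). In scriptaid with all libraries CYP51A1, HSD17B7 and NSDHL fell at C4, whereas NSDHL was at -0.01 at C5.

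**Figure D4:**
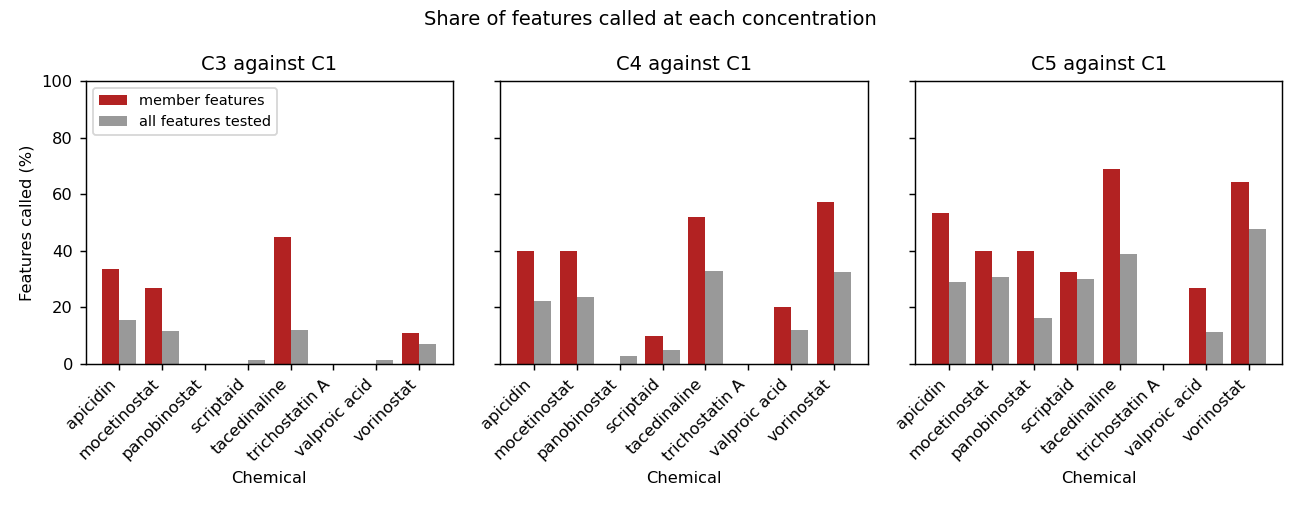
Percent of features called (adjusted p under 0.05 and a fold of at least 1.5, either direction) among the features of the list (red) and among all features tested (grey) for each chemical, at C3, C4 and C5 against C1. The red bar is the higher one at C3 in apicidin, mocetinostat, tacedinaline and vorinostat, and at C5 scriptaid has 29.8% of all features called and a red bar of similar height, while trichostatin A has almost none of either.

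The trend over all 5 concentrations gave a similar picture, with 88 falling and 12 rising results. The calls were 2 rising and 14 falling in apicidin (34.4% of all features called by trend), 2 and 16 in mocetinostat (35.6%), 1 and 9 in panobinostat (17.4%), and 1 and 5 in scriptaid (13%). They were 3 and 18 in tacedinaline (43.3%), 0 and 9 in valproic acid (14.9%) and 3 and 17 in vorinostat (47.4%). Trichostatin A had none (0.0616%), and DESeq2 called none. An unadjusted p under 0.05 in edgeR's test was found there for 3 features of the list, beside 1165 of all 12993 features. Without batch 1 and without batch 2 the trend calls were 1 and 0 in scriptaid and 3 and 5 in valproic acid. They were 8 in mocetinostat without batch 3, and 6 in panobinostat without batch 1 and without batch 3. Shares of all features were not computed for these fits either.

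In trichostatin A the 30 changes at C5 ran from -1.28 to 0.72, and 22 were below 0. Within batches 22 features were lower at C5 in both batch 1 and batch 2, whereas 23 were higher at C5 in batch 3, the batch of the C1 library that stood apart. These directions were not counted over all features, so a shift of the whole library cannot be told apart from one of this list. With that C1 library left out, INSIG1 changed by -0.82 (adjusted p = 0.0512), IDI1 by -0.53 (adjusted p = 0.113), HMGCS1 by -0.49 (adjusted p = 0.212) and MSMO1 by -0.26 (adjusted p = 0.340). No feature of the list was called in that fit, and the share of all features called in it was not computed. ACAT2 was at -0.69 (adjusted p = 0.238), STARD4 at -0.62 (adjusted p = 0.257), HSD17B7 at -0.55 (adjusted p = 0.177), CYP51A1 at -0.21 (adjusted p = 0.665), INSIG2 at 0.29 (adjusted p = 0.507) and MYLIP at 0.35 (adjusted p = 0.836) without the library. With all of batch 3 left out, INSIG1 (-1.04, adjusted p = 0.00903) and IDI1 (-0.65, adjusted p = 0.0298) fell. MSMO1, FDPS and TM7SF2 were above 0 with the C1 library that stood apart and below 0 without it (FDPS 0.04 and -0.25, TM7SF2 0.26 and -0.12). GGPS1 went the other way, from -0.08 with that library to 0.45 without it.

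The change at C5 against C1 differed among the 8 chemicals for 18 of 31 features of the list, by edgeR's quasi-likelihood F test that all chemicals changed equally (adjusted p under 0.05), beside 30.3% of all features. The top and bottom doses are those of the study and are not matched, so this is a difference between these concentration pairs. The title letter, E or H, also differs between chemicals and cannot be separated from them here. The DHCR7 feature of higher level differed most clearly (adjusted p = 3.2e-15), with -1.04 in vorinostat against 0.53 in scriptaid. For the other DHCR7 feature no difference was found (adjusted p = 0.312). Next came MSMO1 (1.91e-14), FDPS (2.75e-13) and NSDHL (1.8e-08). IDI1 (2.98e-07) and TM7SF2 (0.00145) differed with calls in opposite directions. INSIG1 (8.09e-05) and INSIG2 (0.0209) also differed. For HSD17B7 no difference was found (adjusted p = 0.451), nor for MYLIP, GGPS1, PMVK, SQLE, LSS, SREBF2 or SCAP. Without batch 2 the number of differing features was 8.

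A wider list of 22 genes of sterol sensing, sterol trafficking and the isoprenoid branch gave 21 rises and 20 falls among 192 results at C5. TMEM97, a sterol-responsive membrane protein, fell in 6 chemicals, most in vorinostat (log2 change -3.04). NR1H3, which encodes the oxysterol receptor LXR alpha, fell in 5, most in mocetinostat (log2 change -3.99). LIPA, the lysosomal acid lipase that frees cholesterol from its esters, rose in 5, as did DHDDS, which extends farnesyl diphosphate towards dolichol. NPC1, which exports cholesterol from lysosomes, rose in 3. By chemical 41.7% of the features of this wider list were called in vorinostat, beside 47.5% of all features. The shares were 33.3% in tacedinaline (38.8% of all features), 29.2% in apicidin (28.8%), 25.0% in mocetinostat (30.5%), 20.8% in scriptaid (29.8%), 16.7% in panobinostat (16.2%) and 4.17% in valproic acid (11.1%), with none in trichostatin A. The shares of the wider list were thus near or below those of all features in each chemical.

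Hepatocyte markers were followed in the same libraries. Of 11 features of 10 hepatocyte genes (among them ALB, HP and TF), 10 or 11 fell at C5 in each chemical other than trichostatin A, where none did. Their summed level at C5 divided by that at C1 was 0.0561 in tacedinaline, 0.0792 in vorinostat, 0.102 in mocetinostat, 0.115 in scriptaid, 0.206 in apicidin, 0.251 in valproic acid, 0.355 in panobinostat and 0.881 in trichostatin A. These ratios were not compared with the counts of the cholesterol list by a test. The summed level of 9 biliary or progenitor features (7 genes) lay between 63.7 and 161 CPM at C1 and between 64.1 and 225 CPM at C5, and 1 to 3 of the tested features rose in the same 7 chemicals. EPCAM and CFTR had at most 2 and 13 counts in any library. The summed level of 11 mesenchymal features (8 genes) lay between 175 and 358 CPM at C1 and between 104 and 227 CPM at C5, with 2 to 4 of 8 tested falling and 0 to 2 rising in the 7 chemicals, and THY1 and COL1A2 had at most 2 and 5 counts. The part of these shifts in the results above was not tested. In lysates of whole wells, fewer cells of a type and less RNA per cell cannot be told apart. Mean total counts fell from 3038905 at C1 to 1485592 at C5 in vorinostat, from 3646506 to 2325353 in scriptaid and from 2950850 to 2110830 in tacedinaline, and the part of depth in these results was not tested.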

How the data were processed

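TempO-Seq, which ligates and sequences probe pairs bound to a transcript, was run on lysates of differentiated HepaRG cells. The authors deposited whole-number read counts per probe in 1 table for the series, without normalization. The submitters' processing notes name bcl2fastq 2.20.422, fastp 0.23.2, STAR 2.7.10b and DESeq2 1.38.0. The genome build is not given in the sources used here. Of 22069 rows, 1 incomplete row was left out, and every column belonged to a sample. No pair of libraries in a group differed by as little as sampling noise. The named paper reports a different HepaRG experiment, so none of its values was used.

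Each chemical was fitted alone in R 4.3.3 with edgeR 4.0.16 (filterByExpr, TMM, quasi-likelihood F test, two-sided). C2 to C5 were compared with C1, and a linear slope on log2 concentration gave the trend, stated as a fitted C5 against C1 change. Benjamini-Hochberg adjustment of p-values ran over all features tested in a comparison. A call needed an adjusted p under 0.05 and a fold of at least 1.5. The difference among chemicals was tested on all 118 libraries together. CPM used TMM factors of all libraries. Tests were checked on simulated data.

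The genes and lists were chosen with earlier results of these data known. Values per library were printed for the 3 genes of each role with the most calls, in the chemical of the largest change and in chemicals where the gene was not called; further genes were given values after these were seen. Per the labels, a replicate number marks 1 HepaRG batch, so the numbers pair the libraries. As a check, deviations from group means correlated with a median of 0.023 for 232 library pairs within batches and -0.0109 for 464 pairs across batches. Alternatives were DESeq2 1.42.0, its size factors, no filter, a batch block, a fold of 2, probes summed per gene, all libraries in 1 fit, and each batch left out. Leaving out each library that stood apart was added after seeing the data. Depth limited genes with few counts, such as SREBF1.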

Additional observations from a re-analysis of the deposited data

Results flagged for a closer look

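The change at C5 against C1 differed among the 8 chemicals, by edgeR's quasi-likelihood F test with Benjamini-Hochberg adjustment over all features tested, for the following features of the list. In the mevalonate arm the adjusted p was 0.00433 for ACAT2, 8.66e-07 for HMGCS1, 0.0271 for MVD, 2.98e-07 for IDI1 and 2.75e-13 for FDPS. In the sterol arm it was 0.00593 for FDFT1, 0.000272 and 0.00852 for 2 features of CYP51A1, 0.00145 for TM7SF2, 1.91e-14 for MSMO1, 1.8e-08 for NSDHL, 0.0092 for EBP, 0.00373 for SC5D and 3.2e-15 for the DHCR7 feature of higher level. Among control and transport genes it was 8.09e-05 for INSIG1, 0.0209 for INSIG2, 0.042 for SREBF1 and 0.00163 for STARD4. IDI1 was called rising in scriptaid and falling in 5 chemicals. TM7SF2 was called rising in scriptaid and falling in mocetinostat and tacedinaline. Both scriptaid calls were lost without batch 1, without batch 2 and without the filter on low counts. Groups held at most 3 libraries, so no statistical test for a single library standing apart was made. The 6 libraries that stood apart by distance were each left out in turn, as given above.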

How the results depend on the processing

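The number of features called moved by over 1.5 times in these cases. Shares of all features were not computed for them, except in the fits without scriptaid C4 replicate 3 or mocetinostat C2 replicate 3. With all libraries in 1 fit it was 16 in scriptaid at C5 (10 as reported) and 10 by trend (6). At a fold of at least 2 it was 5 in panobinostat at C5 (12) and 5 by trend (10), 6 in scriptaid at C5 (10), and 2 in valproic acid at C5 (8) and 2 by trend (9). Over the fits that each left out 1 batch the count ran from 6 to 10 in mocetinostat at C5 and 8 to 16 by trend, 6 to 13 in panobinostat at C5 and 6 to 9 by trend, 2 to 15 in scriptaid at C5 and 0 to 7 by trend, 0 to 2 in trichostatin A at C5, and 1 to 11 in valproic acid at C5 and 3 to 11 by trend. The features differing among chemicals numbered 8 to 15 in these fits. Without scriptaid C4 replicate 3 the count was 15 in scriptaid at C5, 10 by trend (so that the range over left-out fits was 0 to 10) and 7 at C4 (3 as reported), and without mocetinostat C2 replicate 3 it was 13 in mocetinostat at C2 (0 as reported). In apicidin, tacedinaline and vorinostat no alternative moved a count at C5 or by trend by as much.

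With the batch as a block, pairing the libraries, the calls at C5 were 16 in apicidin, 12 in mocetinostat, 12 in panobinostat, 13 in scriptaid, 20 in tacedinaline, 0 in trichostatin A, 8 in valproic acid and 18 in vorinostat. By trend they were 17, 17, 10, 5, 21, 0, 10 and 20 in that order, and 18 features differed among chemicals. The block lost no single call at C5, and the share of all features called with it was not computed.

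Of 96 calls at C5, 55 held in every planned refit at the fold of 1.5, and 46 of these 55 were also of a fold of 2, as were 65 of the 96. In a fit without 1 batch 40 were lost, and 10 in another refit. 1 value changed sign with a call: a feature of CYP51A1 was at 0.12 in tacedinaline without a call and, with the probes summed per gene, the gene was at -2.12, a value set by its stronger probe. The losses outside left-out batches were in scriptaid, valproic acid, panobinostat and tacedinaline, and the cause was not tested. Depth limits weak features, and intervals for them were not computed.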
